A study of Mus musculus with 3 samples.

Results

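The genes described here are 10 regulators of cell cycle exit and of G1 progression: the D-type cyclins Ccnd1, Ccnd2 and Ccnd3, the Cip/Kip inhibitors Cdkn1a, Cdkn1b and Cdkn1c, the INK4 inhibitors Cdkn2c and Cdkn2d, and the antiproliferative genes Gadd45g and Btg2. Members were taken by name, and a probe was assigned to a member where its accession is a RefSeq transcript of that gene. This gave 12 probes of the 26582 that could be named, and 10 of 20145 genes. Cdkn1a and Ccnd3 had 2 probes each and the other genes 1 each.

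The 3 sorted populations were measured on 1 array each. MGE-GFP+ cells (MGE cells in what follows) were sorted from the medial ganglionic eminence (MGE) of E12.5 embryos on a CD1 background that carry an Lhx6-GFP BAC, and the labels give them as female. ES-Lhx6-GFP+ cells (GFP+ ES cells) and their negative counterpart ES-Lhx6-GFP- (GFP- ES cells) came from embryoid body aggregates of the J14 mouse ES cell line (129S4/SvJae, male, carrying Lhx6-GFP BAC and, per the labels, a virally delivered 692-mCherry enhancer reporter) on day 12 of MGE differentiation. Both ES populations had received the Wnt inhibitor Dkk-1 at 100 ng/ml and, from day 3, the Smoothened agonist SAG at 6 nM, and the aggregates of 20 plates (1920) were pooled and dissociated in the presence of a ROCK inhibitor. The gate is a BAC transgene driven by Lhx6, a transcription factor of MGE-derived interneurons, so it reports the transgene and not the whole MGE, and J14 is a single line. MGE and ES cells also differed in strain, labelled sex, dissociation and source, which cannot be told apart here.

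D-type cyclins bind Cdk4 and Cdk6, and the complexes phosphorylate the retinoblastoma protein and release E2F factors, which turn on genes of S phase. INK4 proteins block Cdk4 and Cdk6 directly, while Cip/Kip proteins bind cyclin-Cdk complexes more widely. In the ganglionic eminences, dividing progenitors line the ventricle and leave the cycle as they become neurons. Cdkn1c and Cdkn1b accompany that exit in many parts of the developing brain, Cdkn1a is the classical p53 target among the inhibitors, Gadd45g is a stress-inducible gene that also appears in newborn neurons, and Btg2 marks progenitors that make neurons.

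RefSeq promoter windows (GRCm38.p6, 250 bases before to 50 after a transcript start, on the strand of the gene) were matched for 7 of the 10 genes, as 10 windows. Those of Cdkn1a (the upstream of its 2 starts, which lie 2790 bases apart), Gadd45g and Btg2 are printed because these are the 3 genes at least 2-fold lower in MGE cells than in each ES population. Capitals mark the CRE, TGACGTCA, the core ACATGTC of the p53 motif, the CCAAT box, the E-box CAGCTG and the TATA box as TATAAA. All were searched on both strands and picked with these windows in view. GC boxes (GGGCGG) were also counted and are left in lower case.
Cdkn1a, chr17:29090729-29091028: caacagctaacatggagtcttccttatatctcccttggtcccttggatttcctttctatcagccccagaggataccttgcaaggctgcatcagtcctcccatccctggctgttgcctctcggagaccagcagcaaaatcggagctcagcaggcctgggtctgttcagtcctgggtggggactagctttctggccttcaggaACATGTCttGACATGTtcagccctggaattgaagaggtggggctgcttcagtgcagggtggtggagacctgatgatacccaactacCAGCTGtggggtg
Gadd45g, chr13:51846425-51846724: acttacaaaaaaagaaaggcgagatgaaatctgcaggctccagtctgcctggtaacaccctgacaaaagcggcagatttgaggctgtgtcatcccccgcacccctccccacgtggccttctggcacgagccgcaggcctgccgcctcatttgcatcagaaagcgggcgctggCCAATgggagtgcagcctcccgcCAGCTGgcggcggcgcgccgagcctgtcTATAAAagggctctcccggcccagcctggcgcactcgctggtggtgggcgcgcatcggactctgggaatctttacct
Btg2, chr1:134079106-134079405: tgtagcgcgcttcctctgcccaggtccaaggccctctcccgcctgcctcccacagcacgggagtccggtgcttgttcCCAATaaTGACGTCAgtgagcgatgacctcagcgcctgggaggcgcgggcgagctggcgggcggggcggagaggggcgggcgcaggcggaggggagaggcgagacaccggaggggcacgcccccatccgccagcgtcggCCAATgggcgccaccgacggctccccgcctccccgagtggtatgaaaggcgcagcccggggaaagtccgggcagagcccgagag

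The printed Cdkn1a window held ACATGTC once on each strand, at -49 to -43 and at -40 to -34 from the start. The window at the downstream Cdkn1a start, which is not printed, held 0 ACATGTC, 0 CAGCTG and 2 GC boxes. At least 1 ACATGTC was found in 659 of the 32851 RefSeq windows (2.01%) and at least 2 in 93 (0.283%). Gadd45g had TATAAA at -27 to -22, with a CAGCTG at -55 to -50 and a CCAAT at -78 to -74. TATAAA was present in 13.6%, CAGCTG in 16.3% and CCAAT in 37.4% of windows. Btg2 had a CRE at -166 to -159, a motif of 1.79% of windows, next to 1 of its 2 CCAAT boxes and upstream of 3 GC boxes, a pair of which overlap by a base (35.7% of windows hold at least 1). These matches describe the letters of the windows, and no binding was measured.

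Values are background-subtracted intensities of single-color Agilent arrays. For comparisons, log2 intensity was taken relative to the 75th percentile of the array, which was an intensity of 747 on the GFP+ ES, 843 on the GFP- ES and 576 on the MGE array. With 1 array per population there is no replicate and no test. The only error that can be given is that of repeat spots within an array, with an SD of 0.139, 0.141 and 0.144 on the log2 scale, so that 2 SDs of a difference come to 0.40 (1.32-fold) in each comparison. That spread holds no variation between embryos, cultures, sorts or amplifications. A gene was called where its difference was at least 2-fold and larger than 2 SDs. The GFP+ ES array had more signal among dim probes, with a median of 69.9 over 106 control probes for sequences absent from mouse (E1A and ERCC) against 11.5 and 7.73 on the GFP- ES and MGE arrays. Their 95th percentile was 377, 208 and 152 in the same order, and a probe at or below it is described as within the control range. Of the markers of the labelled cell type, 10 of 10 MGE and GABAergic genes were above the control range on every array, GFP- ES included. All 10 were called higher in GFP+ ES and in MGE than in GFP- ES cells (8 to 10 and 9 to 10 over the alternatives). In MGE against GFP+ ES cells, 5 were called higher (Lhx8, Nkx2-1, Dlx2, Dlx5 and Sox6) and 0 lower, with 5 to 7 higher over the alternatives. Of all genes, 5.49% were called higher in that comparison, and 8.36% of those above the control range. Lhx6 is 1 of the 10 genes, and the sort itself selected on its transgene.

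The D-type cyclins were highest in GFP- ES cells and lower in GFP+ ES and MGE cells. Ccnd1, which links growth factor signals to G1 progression, had intensities of 901 in GFP+ ES, 5870 in GFP- ES and 761 in MGE cells. The GFP- array stood apart, and the GFP+ ES and MGE arrays lay close together. Ccnd1 was 5.77-fold lower in GFP+ ES than in GFP- ES cells (log2 difference -2.53) and 5.27-fold lower in MGE cells (-2.40), whereas MGE and GFP+ ES cells differed by 0.13, less than 2 SDs, and by 0.88 with the arrays scaled to their 50th percentile.

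Ccnd2, a cyclin of neural progenitors, gave intensities of 1490, 8380 and 940 in GFP+ ES, GFP- ES and MGE cells. The order was the same as for Ccnd1 in that both GFP+ arrays lay far below the GFP- array. It was 4.97-fold lower in GFP+ ES cells (-2.31) and 6.09-fold lower in MGE cells (-2.61). Between GFP+ ES and MGE cells Ccnd2 differed by -0.29, within 2 SDs, and by 0.45 with the 50th percentile scaling.

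Ccnd3, the most widely expressed of the D-type cyclins, was read by 2 probes. The NM_007632 probe had 445, 871 and 166, and the NM_001081636 probe 364, 1080 and 217, in the same order of arrays, the value of 364 lying within the control range. Both probes placed the GFP- array highest and the MGE array lowest. Averaged over the probes, Ccnd3 was 2.13-fold lower in GFP+ ES than in GFP- ES cells (-1.09), by -0.79 and -1.39 for the single probes and by -0.94, under 2-fold, with normexp background correction, and 3.49-fold lower in MGE than in GFP- ES cells (-1.81). The difference of -0.71 between MGE and GFP+ ES cells did not reach 2-fold, and it ran from -1.05, a call, with the control-probe floor to 0.04 with the 50th percentile scaling.

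**Figure D1:**
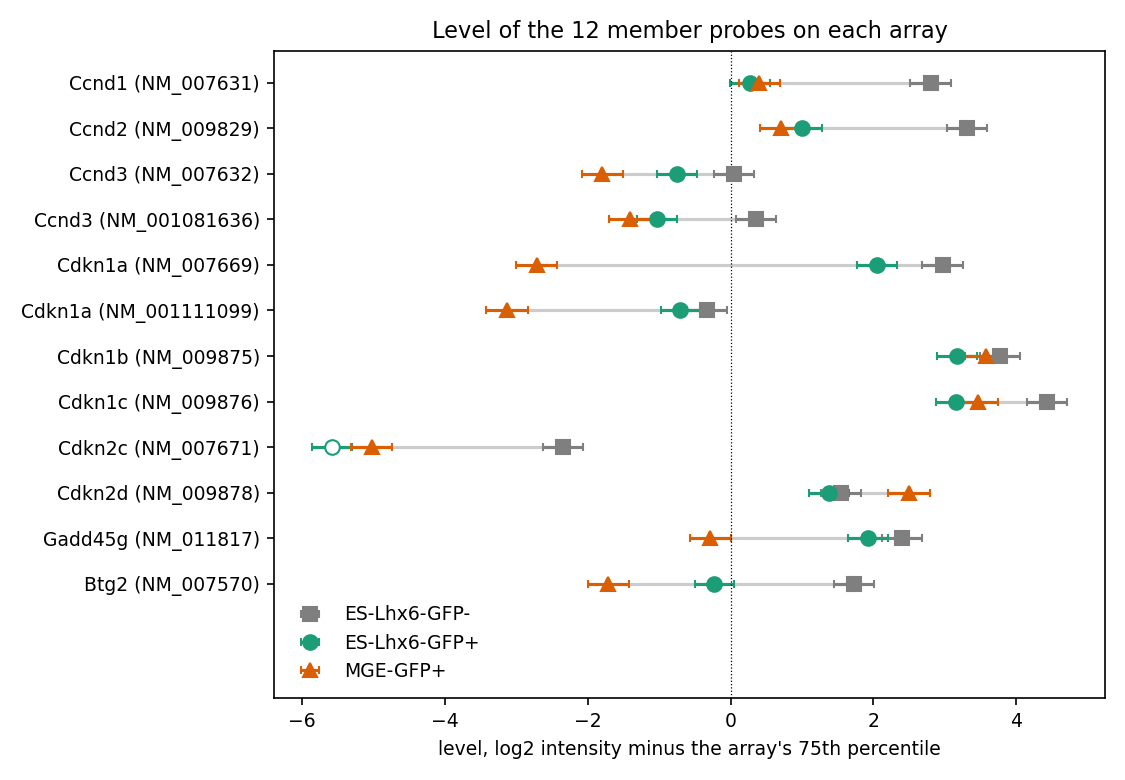
Level of each of the 12 probes (rows) on the 3 arrays, as log2 intensity minus the array's 75th percentile, with bars of 2 SDs of repeat spots and 0 dotted. The open symbol, Cdkn2c in GFP+ ES cells, is not well above background; Ccnd1 and Ccnd2 show the GFP- array apart from both GFP+ arrays, and Cdkn1a the MGE array apart from both ES arrays.

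Among the Cip/Kip inhibitors, Cdkn1a separated MGE from ES cells, while Cdkn1b and Cdkn1c were bright on all 3 arrays. The Cdkn1a probe NM_007669 is printed 10 times on each array. Its spots ranged from 2891 to 3372 (median 3046) in GFP+ ES, from 6097 to 6990 (median 6742) in GFP- ES and from 78.3 to 101 (median 87.8) in MGE cells. No spot of an array overlapped those of another, and the SD over the 10 spots was 0.07, 0.07 and 0.11 on the log2 scale.

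The other Cdkn1a probe, NM_001111099, gave 459, 671 and 65.8 in GFP+ ES, GFP- ES and MGE cells, in the same order as the first. Both probes were within the control range on the MGE array. Averaged over the probes, Cdkn1a was 12.1-fold lower in MGE than in GFP+ ES cells (-3.60) and 18.9-fold lower than in GFP- ES cells (-4.24). The probes disagreed in size, with 27.2-fold and 5.38-fold in the first and 51.5-fold and 6.97-fold in the second comparison. Over the 9 alternative settings the log2 differences ran from -4.76 to -2.60 and from -5.69 to -3.24. GFP+ ES cells had 1.57-fold less Cdkn1a than GFP- ES cells (-0.65), above 2 SDs but under 2-fold, and called with the 50th percentile scaling (-1.09). The single probes gave -0.92 for NM_007669 and -0.37, within 2 SDs, for NM_001111099.

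**Figure D2:**
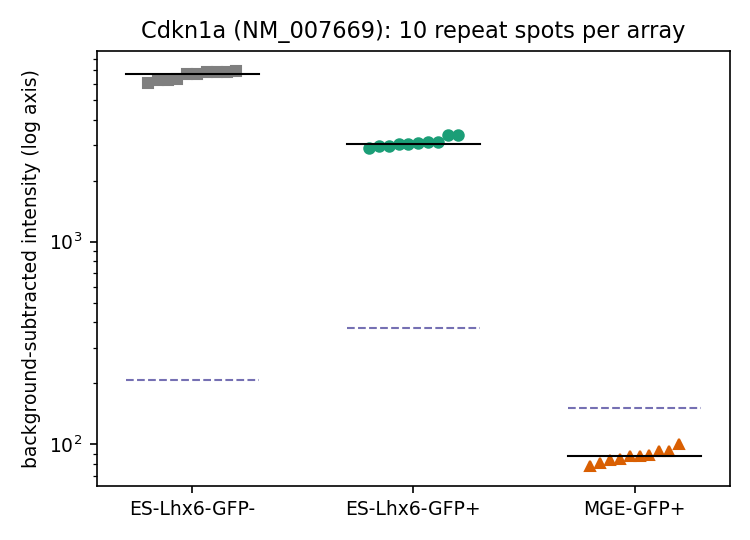
Background-subtracted intensity (log axis) of the 10 repeat spots of the Cdkn1a probe NM_007669 on each array, in order of intensity, with their median (solid) and the 95th percentile of the control probes (dashed). The MGE spots, 78.3 to 101, lie below the dashed line at 152, and the spots of both ES arrays lie above theirs.

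Cdkn1b, the inhibitor p27, had intensities of 6710 in GFP+ ES, 11500 in GFP- ES and 6860 in MGE cells. The lowest and the highest array lay closer than for Cdkn1a and Cdkn1c. It was 1.52-fold lower in GFP+ ES than in GFP- ES cells (-0.61) and 1.33-fold higher in MGE than in GFP+ ES cells (0.41), the first above 2 SDs and the second at their edge. The difference of -0.20 between MGE and GFP- ES cells was within 2 SDs, and its sign turned with the 50th percentile scaling (0.11). No Cdkn1b difference was called, but with the 50th percentile scaling the first (-1.05) and the second (1.16) were.

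Cdkn1c, the imprinted inhibitor p57, gave 6670, 18200 and 6330 in GFP+ ES, GFP- ES and MGE cells. The GFP- array again stood highest. Cdkn1c was 2.41-fold lower in GFP+ ES than in GFP- ES cells (-1.27) and 1.96-fold lower in MGE cells (-0.97), the second just short of 2-fold and called with normexp, with quantile normalization and in the deposited values (to -1.10). MGE exceeded GFP+ ES cells by 0.30, which is within 2 SDs and came to 1.05 with the 50th percentile scaling.

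The INK4 genes did not share a pattern. Cdkn2d, the inhibitor p19 of postmitotic neurons, gave 1940, 2460 and 3250 in GFP+ ES, GFP- ES and MGE cells and was the only member with its highest level on the MGE array (with the 50th percentile scaling Cdkn1b also was). It was 2.17-fold higher in MGE than in GFP+ ES cells (1.12; 0.88 to 1.87 over the alternatives) and 1.94-fold higher than in GFP- ES cells (0.95; 0.74 to 1.26). GFP+ ES and GFP- ES cells differed by -0.17, within 2 SDs.

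Cdkn2c, the inhibitor p18, was dim, with 15.6, 166 and 17.7 in GFP+ ES, GFP- ES and MGE cells, and within the control range on all 3 arrays. On the GFP+ ES array it was not well above background, so the difference of -2.65 (6.26-fold lower) is taken at the lowest level called well above background on that array. It ran from -4.38 to -1.53 over the alternatives, and with the floor at the control probes there was no value. In MGE cells Cdkn2c was 6.42-fold lower than in GFP- ES cells (-2.68; -2.68 to -1.11 over the alternatives), with no value at the control-probe floor. No fold was taken between GFP+ ES and MGE cells, where 6 alternatives gave 0.24 to 2.37. With quantile normalization Cdkn2c was the member called higher there and Cdkn2d (0.87) was not.

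Gadd45g and Btg2 were lowest in MGE cells. Gadd45g gave 2840 in GFP+ ES, 4460 in GFP- ES and 472 in MGE cells, so the ES arrays were close and the MGE array far below. It was 4.64-fold lower in MGE than in GFP+ ES cells (-2.22) and 6.45-fold lower than in GFP- ES cells (-2.69). Within the ES cultures the GFP+ cells were 1.39-fold lower (-0.47), above 2 SDs and under 2-fold.

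Btg2 gave 639, 2790 and 176 in GFP+ ES, GFP- ES and MGE cells and stepped down at each array in the order GFP-, GFP+ ES and MGE. It was 3.86-fold lower in GFP+ ES than in GFP- ES cells (-1.95), 2.80-fold lower in MGE than in GFP+ ES cells (-1.48) and 10.8-fold lower in MGE than in GFP- ES cells (-3.44). The step between GFP+ ES and MGE cells ran from -1.48 to -0.74 over the alternatives, and it was under 2-fold with the 50th percentile scaling and in the deposited values.

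**Figure D3:**
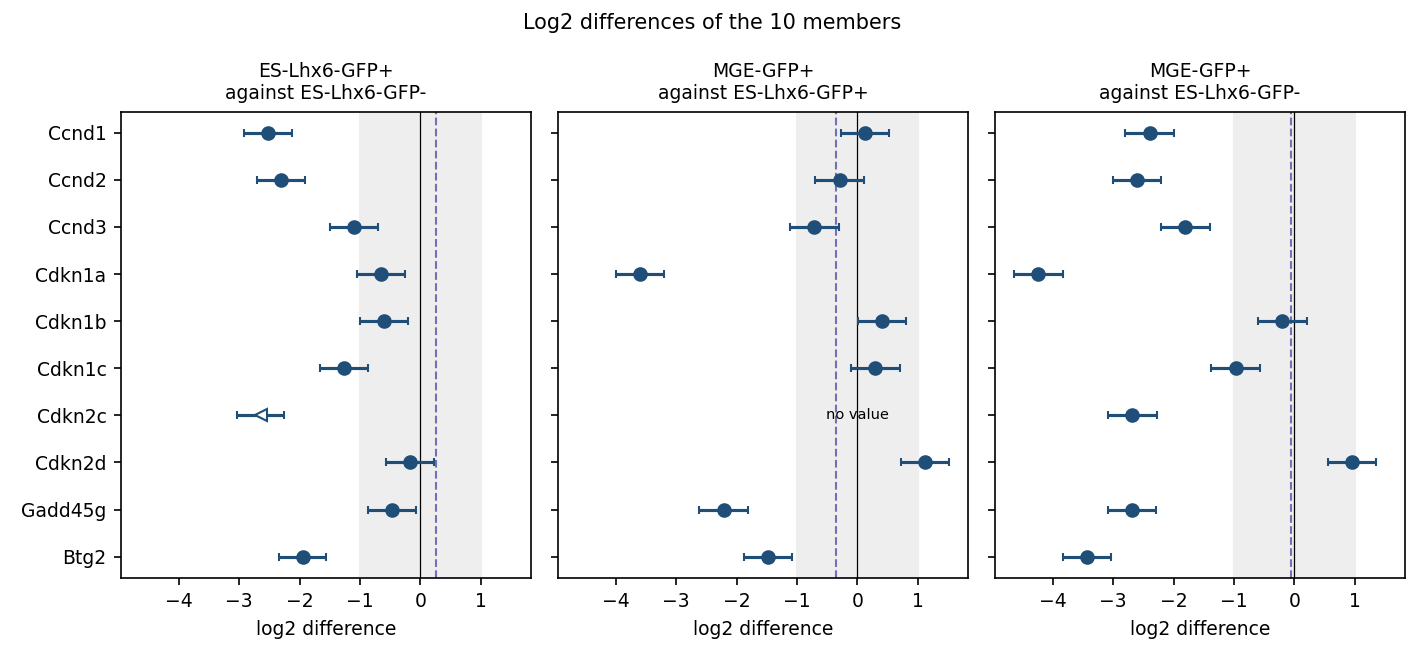
Log2 difference of each member in the 3 comparisons, with bars of 2 SDs of a difference between repeat spots, a grey band for differences under 2-fold and a dashed line at the median of all genes. The open triangle (Cdkn2c) is set at the floor of the GFP+ ES array; all 10 members lie below 0 in GFP+ ES against GFP- ES cells, by 0.17 to 2.65.

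The 3 comparisons share arrays and are not independent of each other. Within the ES cultures, 10 of 10 members were lower in GFP+ ES than in GFP- ES cells, 9 of them by more than 2 SDs (all but Cdkn2d), and the sign was negative under every one of the 9 alternatives that gave a value. Of these, 6 were called lower (Cdkn1c, Cdkn2c, Ccnd1, Ccnd2, Ccnd3 and Btg2) and 0 higher. With the floor at the control probes 5 were called lower, without Cdkn2c. Of all genes with a value 6.4% were called lower and 24.1% higher. Among genes above the control range, which do not include Cdkn2c, the shares were 8.78% and 6.91%. The median over the members was -1.18 against 0.27 over 18657 genes. In a bulk sample, fewer cells of a type and less RNA per cell cannot be told apart.

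In MGE against GFP+ ES cells, 9 members had a value, 3 were called lower (Cdkn1a, Gadd45g and Btg2) and 1 higher (Cdkn2d). The shares of all genes were 32.2% lower and 5.49% higher, and among genes above the control range 10.6% and 8.36%. The members' median of -0.29 lay near that of all genes, -0.36. The 3 of 9 called lower were thus near the share over all genes and above that among genes over the control range.

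Against GFP- ES cells, 7 members were called lower in MGE cells (Cdkn1a, Cdkn2c, Ccnd1, Ccnd2, Ccnd3, Gadd45g and Btg2) and 0 higher. With the floor at the control probes 6 were called lower, without Cdkn2c. The shares of all genes were 17.2% lower and 9.97% higher. Among genes above the control range, which do not include Cdkn2c, they were 15.5% and 11.6%. The median was -2.50 against -0.06 over all genes.

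The all-gene medians of 0.27 and -0.36 in the comparisons with the GFP+ ES array were 0.03 and 0.08 over genes above the control range. With the 50th percentile scaling they were -0.18 and 0.40 over all genes, so differences of this size depend on the scaling. The higher share among called genes was 79.0% in GFP+ ES against GFP- ES cells and ran from 43.6% to 79.1% over the alternatives. In MGE against GFP+ ES cells it was 14.5% (14.4% to 60.2%) and against GFP- ES cells 36.7% (35.8% to 58.8%).

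**Figure D4:**
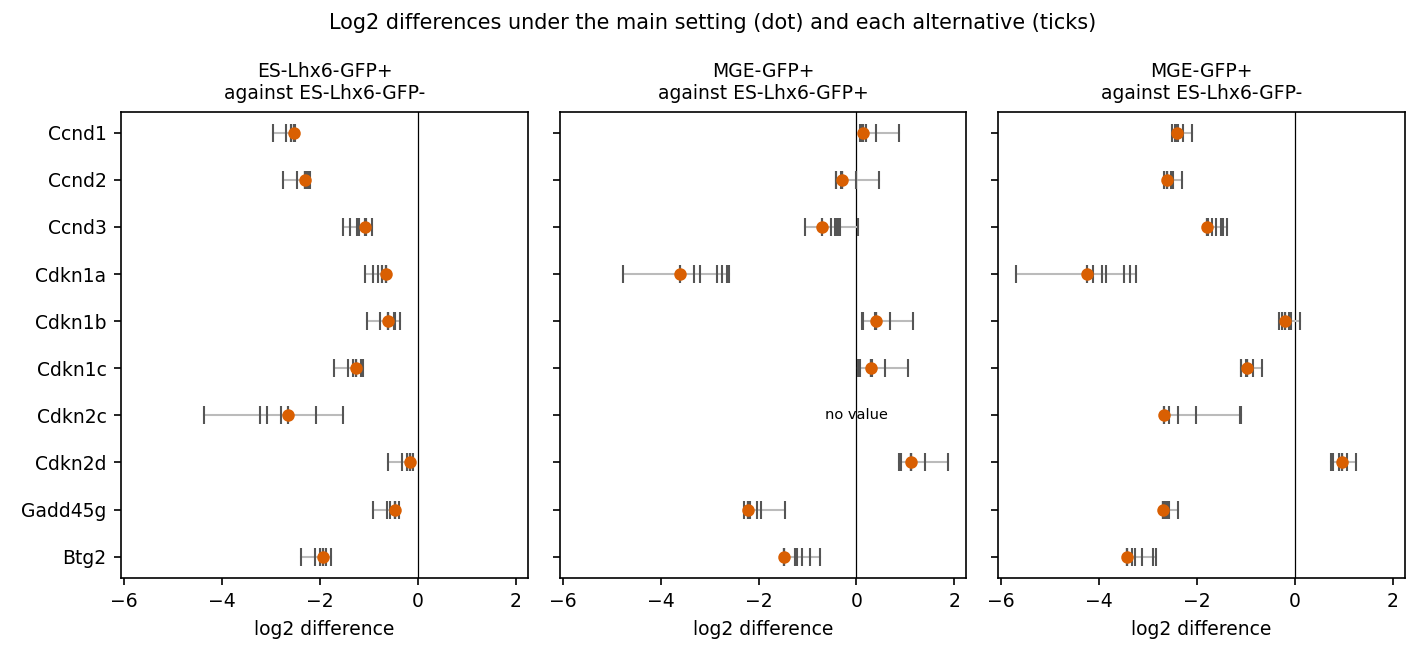
Log2 difference of each member with the settings used in the text (dots) and under each of 9 alternative settings (ticks) in the 3 comparisons. The Cdkn1a ticks stay below -2.5 in both MGE comparisons, while those of Ccnd2 and Ccnd3 reach 0.45 and 0.04 in MGE against GFP+ ES cells.

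Of 12 G1 kinases, E cyclins and pocket proteins on the array, 1 was called lower in GFP+ ES than in GFP- ES cells (Cdk2, the kinase of cyclin E, -2.24) and 0 higher. Cdk2 was within the control range on the GFP+ ES and MGE arrays, and the number called lower ran from 0 with the control-probe floor to 3 with the 50th percentile. The partner kinase Cdk4 differed by -0.24, and Cdk6 was within the control range on every array. In MGE against GFP+ ES cells, Rb1, the retinoblastoma gene, was called higher (1.03), and between 0 and 4 of the list over the alternatives. Against GFP- ES cells, Cdk2 was called lower (-2.06) except with the control-probe floor.

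Of 8 E2F factors, 5 were called lower in GFP+ ES than in GFP- ES cells (E2f2, E2f5, E2f6, E2f7 and E2f8) and 0 higher, with 3 to 7 lower over the alternatives. E2f2, an activating factor of S-phase genes, had -1.96, and E2f6, a repressor, -1.22. In MGE against GFP+ ES cells, 3 were called higher (E2f6, E2f7 and E2f8), and between 1 and 6 over the alternatives. Against GFP- ES cells, E2f2 (-2.40) was called lower in MGE cells. E2f8 was called too, but it was within the control range on all 3 arrays.

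The remaining Cdk inhibitors, Cdkn2a and Cdkn2b, were within the control range on every array. In GFP+ ES against GFP- ES cells both were called higher, opposite to the members, by 3.30 for Cdkn2a, from the 1 of its 2 probes that gave a value, and by 1.57 for Cdkn2b. Between 0 and 2 of them were called under the alternatives.

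Most genes of later phases had their lowest level in GFP+ ES cells. Of 6 S, G2 and M phase cyclins and Cdk1, 5 were called lower there than in GFP- ES cells (Ccna2, Ccnb1, Ccnb2, Ccnf and Cdk1), and all of these but Ccnb1 were within the control range on the GFP+ ES array. Ccnb1, the mitotic cyclin B1, had -3.03 in that comparison and 1.16 in MGE against GFP+ ES cells, where Ccnf and Cdk1 were also called higher and Ccna1 lower. Ccna1 was within the control range on all 3 arrays. Over the alternatives 2 to 4 genes of the list were called higher in MGE than in GFP+ ES cells and 0 to 1 lower. Of 12 proliferation markers, 8 were called lower in GFP+ ES than in GFP- ES cells, the largest differences being those of the topoisomerase Top2a (-3.15), the ribonucleotide reductase subunit Rrm2 (-3.06) and Birc5 (-2.91), which acts in mitosis. In MGE against GFP+ ES cells, 8 of the 12 were called higher and 0 lower (4 to 10 higher over the alternatives), with a median of 1.07. Between MGE and GFP- ES cells, 4 were called lower (Mki67, Top2a, Birc5 and Bub1). Of the 12 markers, 4 were above the control range in GFP+ ES, 11 in GFP- ES and 8 in MGE cells.

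Relatives of Btg2 and Gadd45g were called lower in GFP+ ES than in GFP- ES cells for 3 of 7: the antiproliferative genes Tob1 (-2.02) and Btg3 (-1.57), and the stress gene Gadd45b (-1.07). Btg4 was called higher, at a floor and within the control range. In MGE against GFP- ES cells, Gadd45b had -3.49, and Gadd45a, Btg3 and Tob1 were called lower as well (-1.03, -1.60 and -1.84). In MGE against GFP+ ES cells, Gadd45b (-2.41) and Btg4 were called lower. Gadd45b was within the control range on both of those arrays and Btg4 on all 3, and with the control-probe floor or the deposited values 0 of the list were called lower.

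**Figure D5:**
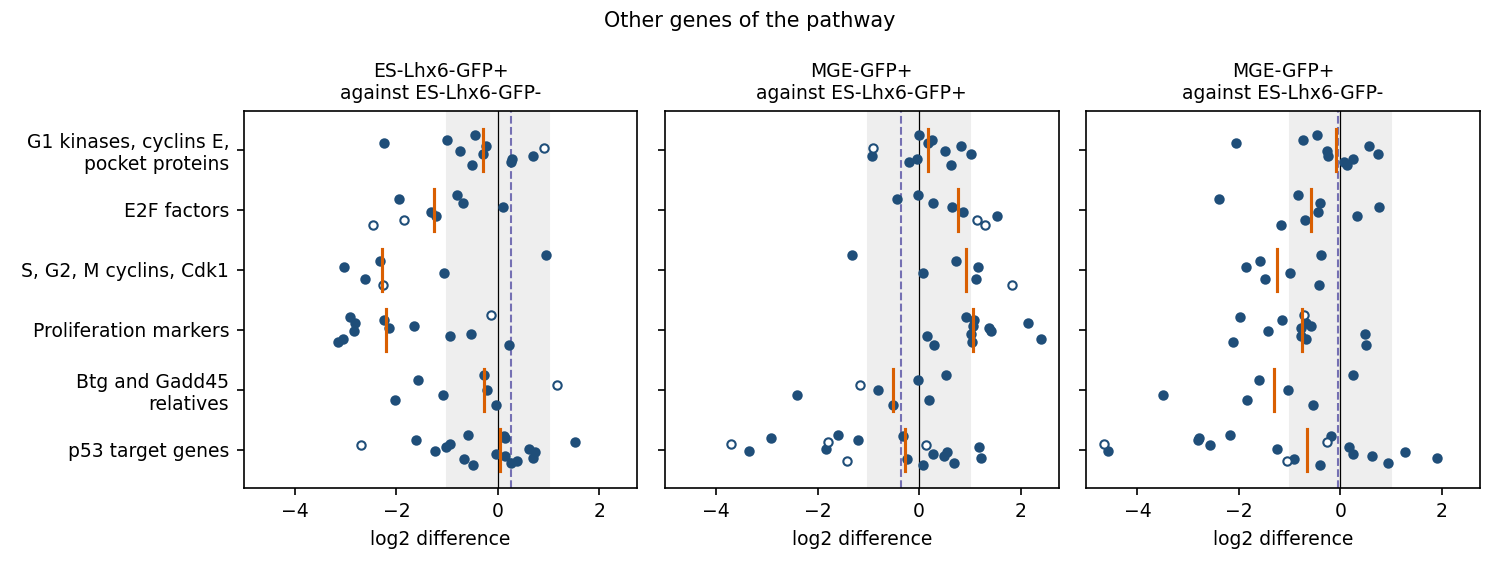
Log2 difference of each gene of 6 lists around the cell cycle (dots; open dots rest on a floor for at least 1 probe) in the 3 comparisons, with the list median (orange), the median of all genes (dashed) and a grey band for differences under 2-fold. The proliferation markers have a median of -2.20 in GFP+ ES against GFP- ES cells and of 1.07 in MGE against GFP+ ES cells.

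For the p53 targets, which include Cdkn1a and from which it was left out here, 8 of 18 were called lower in MGE than in GFP+ ES cells and 2 higher (Mdm2 and Sesn1). Against GFP- ES cells 8 were lower and 2 higher (Sesn1 and Plk2). Phlda3, an inhibitor of Akt signalling, was 10.2-fold and 23.9-fold lower in the 2 comparisons, Bbc3, the apoptosis gene Puma, 7.57-fold and 6.86-fold lower, and Ccng1 2.29-fold and 7.03-fold lower. Eda2r, a death receptor, was not well above background in MGE cells and lower by 13.1-fold and 25.2-fold at the floor of that array (log2 differences up to -1.94 and -2.52 over the alternatives). Mdm2, the ubiquitin ligase of p53, Bax and Zmat3 did not share this order: Mdm2 was 2.27-fold higher in MGE than in GFP+ ES cells, and the other two differed by -0.31 and 0.08. The list median was -0.27 against -0.36 for all genes in the first and -0.66 against -0.06 in the second comparison, and over the alternatives the first ran from -0.31 to 0.48, with 4 to 8 targets called lower. Phlda3 and Eda2r were within the control range on the MGE array, and Ccng1 on the MGE and GFP+ ES arrays. Perp, Ddit4l, Tap1 and Gtse1, each called lower in at least 1 MGE comparison, were within it on all 3 arrays. Of all genes, 32.2% were called lower in MGE than in GFP+ ES and 17.2% lower than in GFP- ES cells. Among genes above the control range these shares were 10.6% and 15.5%. Within the ES cultures, 4 targets were called lower in GFP+ ES cells (Mdm2, Ccng1, Phlda3 and Gtse1) and Ddit4l higher. Trp53 itself differed by 0.97 and by -0.02 in the MGE comparisons and by -0.99 in GFP+ against GFP- ES cells. None of these was called, but 0.97 and -0.99 lay just under 2-fold, and each was called under 2 of the 9 alternatives (up to 1.72 and down to -1.43).

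Other groups moved with these results, and their part in them was not tested. Beside the lower D-type cyclins of GFP+ ES and MGE cells, 8 of 9 radial glia genes were called lower in GFP+ ES and in MGE than in GFP- ES cells. Over the alternatives the counts were 6 to 9 and 7 to 8. The exception, Sox2, differed by -0.98 and 0.06. Hes1, Slc1a3 and Pax6 were within the control range on the GFP+ ES and MGE arrays. On the MGE array Pax6 was not well above background. The shares of all genes called lower were 6.4% and 17.2%, and among genes above the control range 8.78% and 15.5%. The summed level of the 9 radial glia genes, in units of each array's 75th percentile, was 12.7 in GFP+ ES, 63.2 in GFP- ES and 15.2 in MGE cells. Beside the lower Cdkn1a, Gadd45g and Btg2 of MGE cells, 7 of 10 immediate early genes, which respond quickly to stimuli, were called lower in each MGE comparison, and between 2 and 7 over the alternatives. In both comparisons these included 6 genes (Fosb, Jun, Junb, Ier2, Atf3 and Nr4a1), with Egr1 only against GFP+ ES and Egr2 only against GFP- ES cells. Fos, the best known of them, differed by -0.15 and -0.19. Of the genes called, Junb was within the control range on all 3 arrays, and Ier2, Atf3, Nr4a1 and Egr2 on the GFP+ ES and MGE arrays. Of all genes, 32.2% were called lower in MGE than in GFP+ ES and 17.2% lower than in GFP- ES cells. Among genes above the control range these shares were 10.6% and 15.5%. Mesenchymal genes were lower too, with 6 of 6 called against GFP+ ES (2 to 6 over the alternatives) and 5 of 6 against GFP- ES cells. Their summed level was 3.85, 5.39 and 0.321 in GFP+ ES, GFP- ES and MGE cells. On the MGE array 0 of the 6 mesenchymal genes were above the control range, and Col1a1, Lum and Twist1 were not well above background. On the GFP+ ES array 2 of the 6 (Col1a2 and Col3a1) were above the control range. In the other direction, 3 of 6 erythroid genes (Hba-a1, Hba-x and Hbb-y) were called higher in MGE cells in both comparisons, and the summed level of the 6 was 1.35, 0.842 and 20.7 in the same order of arrays. Of 8 postmitotic neuron genes, Dcx and Elavl3 were called higher and Nhlh2 lower in GFP+ ES than in GFP- ES cells. Over the alternatives 0 to 2 were called higher and 1 to 2 lower, with 0 higher under the 50th percentile scaling. In the same comparison, 3 of 5 oligodendrocyte progenitor genes (Olig1, Olig2 and Sox10) and 3 of 5 pluripotency genes (Pou5f1, Dppa5a and Tdgf1, 1 to 3 over the alternatives) were called lower. Cspg4, Nanog and Zfp42 differed by 0.16, 0.05 and 0.46. The 1 Nanog probe was very bright everywhere, with log2 levels of 8.27, 8.22 and 8.61 in GFP+ ES, GFP- ES and MGE cells. Whether that probe reads Nanog RNA was not tested. In MGE cells, 3 oligodendrocyte progenitor genes (Olig1, Sox10 and Pdgfra) and 3 pluripotency genes (Pou5f1, Zfp42 and Dppa5a) were called lower in both comparisons. All 6 were within the control range on both the MGE and the GFP+ ES array, and Pdgfra on all 3 arrays. Against GFP+ ES cells the count of each of the 2 lists ran from 0 to 3 over the alternatives. Of the other lists in GFP+ against GFP- ES cells, the mesenchymal Dcn (-2.99) and Twist1 (-1.59) were called lower and Lum higher, and the endothelial Cldn5, the microglial Aif1 and the erythroid Hba-x, Hbb-y and Gata1 higher. These genes called higher were within the control range on both ES arrays. The immediate early Egr1, above it on all 3 arrays, was also called higher (1.02).

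The nearest patterns over the 3 arrays, by Euclidean distance of log2 levels centred on each gene, were sought among 12161 genes above the control range on at least 1 array for the 6 members with a difference of at least 4-fold. For Cdkn1a they were Myo6 and Ctsh (distances of 0.11 and 0.13), for Gadd45g Ror2 and Slco2a1 (0.05 and 0.06) and for Btg2 Slc18a2 and Timp3 (0.015 and 0.09). For Ccnd1 they were Litaf and Fabp7, a radial glia gene (0.08 and 0.12), for Ccnd2 Shc1 and Spag5 (0.10 and 0.11), and for Cdkn2c Utf1 and Jag1 (both 0.07). With 3 arrays many genes come this close: between 50 (Cdkn1a) and 169 (Gadd45g) lay within a distance of 0.5, so these names describe shape over 3 values only.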

How the data were processed

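The authors deposited the Feature Extraction (version 10.7.3.1) output of 3 single-color arrays on 1 slide, whose intensity values are background-subtracted and not scaled between arrays, and a table of log2 values. The scale of the table is not stated; the deposited log2 columns (medians 7.69, 7.68 and 7.69) lay within 0.315 of quantile-normalized log2 median signals, which leaves any further centring unknown. The labels name an array format and amplification kit that differ from those of the methods.

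Here log2 intensity minus each array's 75th percentile over 55681 mouse probes was used, with outlier-flagged spots left out (135, 137 and 98 on the arrays of GFP+ ES, GFP- ES and MGE cells; 0 saturated) and repeat spots averaged. Well above background were 90.6%, 80.3% and 77.1% of probes. A probe without that call on at least a share of 0.5 of its spots was set to the lowest called level of the array, so its fold depends on that floor. Differences of a gene were averaged over its probes with a value, and RefSeq accessions (gene table of GRCm38) gave their names. All 10 members are named, with up to 3 genes a list by their difference in GFP+ against GFP- ES cells, and those a count of 5 or fewer refers to; Cdk4, Cdk6, Bax, Zmat3, Phlda3, Bbc3, Eda2r, Ccng1, Fos, E2f6, Trp53 and Mdm2 are named beyond that. Members and lists were chosen with earlier results of these data known. Alternatives were other scalings, normexp (limma 3.58.1 in R 4.3.3, offset 50, on median spot signals because the files hold no mean), floors, probe choice, outlier spots and the deposited log2 values. Python 3.11.15 was used. The scalings, the averaging over probes and the calls were tested on simulated data. There each probe had the same background call on all arrays, so the floor was not tested. Outlier removal, the averaging of repeat spots and normexp were not tested either.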

Additional observations from a re-analysis of the deposited data

How the results depend on the processing

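Of 259 log2 differences of single members recomputed under 9 alternatives, 183 moved by less than 1 SD of a repeat-spot difference and 76 by more, and 0 called differences changed sign. The 50th percentile scaling moved all 29 it gave. The counts of members called lower stayed within 1.5 times of those in the text, and 3 was the number called higher in MGE against GFP+ ES cells with the 50th percentile (Cdkn1b, Cdkn1c and Cdkn2d), where the text has 1 and the deposited log2 values gave 0; quantile normalization also gave 1, but Cdkn2c in place of Cdkn2d. In MGE against GFP- ES cells 1 (Cdkn2d) was called higher with the 50th percentile and 1 (Cdkn2d) with centring on probes well above background on all arrays, where the text has 0. The cause was not tested. Probes chosen by a gene name column and slide as a block were not run, since the scanner files have no such column and all arrays share 1 slide. No paired analysis was possible because each population has 1 array. Depth is limited by signal over background: Cdkn2c on all arrays and Cdkn1a on the MGE array lie within the control range.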
